A study of Mus musculus with 9 samples.

Results

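The 44 genes described here belong to the integrated stress response, which acts through the transcription factor ATF4, and to the unfolded protein response of the endoplasmic reticulum (ER). They were chosen by symbol, as known members of these pathways, with earlier results of these data known. All 44 were found among the 47643 genes of the count table, and all 44 passed the filter on low counts, which left 18205 genes. By role they fell into 4 stress sensors, 5 transcription factors, 14 genes of amino acid and one-carbon metabolism, transport and tRNA charging, 5 feedback and growth-arrest genes, 12 ER folding genes and 4 genes of ER-associated degradation.

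RNA was sequenced from donor-derived long-term hematopoietic stem cells (LT-HSCs), sorted as Lin-cKit+Sca1+Flk2-CD48-CD150+ from the bone marrow of transplanted mice. TKO donors were Pik3ca lox/lox;Pik3cb lox/lox;Pik3cd-/- with Mx1-Cre and so could lose all 3 class IA PI3K catalytic isoforms, P110α, P110β and P110δ. δKO donors carried the same floxed and deleted alleles without Mx1-Cre and lacked P110δ only. WT donors were WT;Mx1-Cre, so that TKO and WT shared the transgene that δKO lacked. Mx1-Cre is switched on by polyI;polyC (pIpC) throughout the hematopoietic system. Donors were C57BL/6, and their marrow was given to lethally irradiated B6.SJL recipients that were 6 to 8 weeks old. Recipients of every genotype received 250 μg of pIpC in 2 injections given 48 hours apart, and marrow was taken 4 weeks later. Cells of the 7 recipients of a genotype were pooled before sorting, and 3 libraries stood for each genotype. Nothing in the labels says that the libraries of a genotype came from separate animals, so p-values measured only the spread between libraries.

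Cells meet shortages and misfolded protein with linked programs. In the integrated stress response, kinases that include PERK and GCN2 phosphorylate eIF2α, which lowers general translation but raises translation of ATF4, and ATF4 then turns on amino acid synthesis, transport and tRNA charging. In the unfolded protein response, PERK, IRE1 and ATF6 sense unfolded protein in the ER, and the spliced form of XBP1 and the cleaved form of ATF6 turn on chaperones and degradation factors. Blood stem cells make protein slowly and are known to be sensitive to ER stress. Counts per gene show neither translation of Atf4, nor splicing of Xbp1, nor cleavage of ATF6, so the values are RNA levels only.

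Total counts ran from 31300343 to 60386097 per library. With the 2 lowest totals, δKO replicate 1 and the unnumbered δKO library stood apart in genes detected (at least 1 read), with 18180 and 18500 beside 19703 to 22703 in the other 7 libraries. With genes detected as a covariate, the log2 fold changes in δKO against WT turned from 0.44 to -0.017 for Atf4, from 1.07 to -0.12 for Ddit3 and from 0.30 to -0.16 for Hspa5. All 10 stem cell markers examined were detected in all 9 libraries, with Kit between 429 and 949 CPM (read counts scaled to a common library size) and Hlf between 374 and 615 CPM. All 10 lay above 0 in TKO against WT, with a median log2 fold change of 0.49, and 5 of them wholly above, beside 51.2% and 6.88% of all genes tested. Ly6a, which encodes the sorted antigen Sca1, ran from 2.15 to 37.3 CPM. Of the targeted genes, Pik3cb was measured at 25.5 to 33.9 CPM in TKO, below the 44.6 to 63.6 CPM in WT, and at 33.2 to 101 CPM in δKO, whose lowest library was within the TKO range. Pik3ca ranged from 52.8 to 68.0 CPM in TKO, from 41.3 to 88.2 CPM in δKO and from 45.8 to 65.0 CPM in WT. Pik3cd ranged from 71.2 to 73.5 CPM in TKO, from 38.5 to 91.2 CPM in δKO and from 98.2 to 139 CPM in WT. Whole-gene counts include reads outside a deleted part, so these levels do not measure excision. Libraries of 1 genotype differed by 128 to 533 chi-square units per gene, far above the counting error. For δKO, 1 column bore a number found in no label and is named the unnumbered δKO library.

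The 16 ER folding and degradation genes lay on median lower in TKO than in WT and δKO, while the 14 amino acid genes lay to both sides of 0, and no single member passed the test in any comparison. Against WT, all 12 folding genes and all 4 degradation genes had a log2 fold change below 0 in TKO, with medians of -0.48 and -0.49. Against δKO, 12 of the 12 folding genes and 3 of the 4 degradation genes did so, with medians of -0.63 and -0.48. The medians of the amino acid genes were 0.05 against WT and -0.18 against δKO, and those of all genes tested were 0.02 and -0.06. The signs of the folding genes are not 12 separate pieces of evidence, because the genes were measured in the same 9 libraries and moved together between libraries of 1 genotype. In their mean per library the genotypes overlapped. All 16 cell cycle genes examined also lay below 0 in TKO in both comparisons, beside 48.8% and 52.8% of all genes. In RNA from pooled cells, fewer cells of a type and less RNA per cell cannot be told apart.

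Without the 3 libraries highest in neutrophil markers, which were WT replicates 1 and 3 and the unnumbered δKO library, 12 of 12 folding genes lay below 0 against WT and 10 of 12 against δKO. That subset was chosen after the values were seen, and it left WT with 1 library, which was assumed to vary like the others and whose neutrophil gene sum of 5555 CPM was above that of every TKO library. The folding median was then -0.56 against WT and -0.37 against δKO. Leaving out the unnumbered δKO library alone gave 10 of 12 and the same median of -0.37 against δKO, where leaving out δKO replicate 1 gave -0.89. The size of the TKO to δKO difference thus varied with the δKO libraries kept.

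A gene was called at an adjusted p under 0.05 and a change of more than 2-fold in the quasi-likelihood test of edgeR, with adjustment after Benjamini and Hochberg. By that rule 0 of the 44 members were called in TKO against WT, where 0.00549% of all genes were. Likewise 0 members were called in TKO against δKO, where 0% of all genes were, and 0 in δKO against WT, where the share of all genes was 0.00549%. The lowest adjusted p among the members in this quasi-likelihood test was 1.00, 0.465 and 0.699, in that order. DESeq2 and limma, run as alternatives, also called 0 members. Of all genes, DESeq2 called 63, 332 and 75 of 18205 on all libraries. On the pair alone it called 418 of 17548, 83 of 16369 and 51 of 16908. Limma with voom called 12, 0 and 1 of 18205, and on the deposited normalized values 1, 0 and 1. At an unadjusted p under 0.05, 2 members lay lower and 0 higher in TKO against WT, a share lower of 4.55% beside 2.5% of all genes (1.68% of all genes lay higher). The lower count was 0 without TKO replicate 1 and 7 without TKO replicate 2, beside 251 of 19161 and 563 of 19488 genes lower. With limma voom it was 10, beside 1124 of 18205 genes, and 0 members lay higher in each of these. In TKO against δKO, 8 members (18.2%) lay lower and 1 higher, beside 5.56% and 4.6% of all genes. These became 3 lower and 2 higher with upper-quartile scaling factors in place of TMM, beside 666 and 984 of 18205 genes. They were also 3 and 2 without the unnumbered δKO library (1146 and 740 of 19577 genes). With genes detected as a covariate they were 1 and 1 (362 and 598 of 18205 genes), and without δKO replicate 1 13 and 2 (1313 and 1076 of 19583 genes). In δKO against WT, 1 lay lower and 0 higher, beside 3.36% and 3.65% of all genes. Without δKO replicate 1 the direction turned, to 1 lower and 4 higher, beside 537 and 570 of 19583 genes. Without δKO replicate 2 they were 1 lower and 2 higher (1628 and 1454 of 19179 genes). Without the unnumbered δKO library they were 5 lower and 1 higher (620 and 1116 of 19577 genes).

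**Figure D1:**
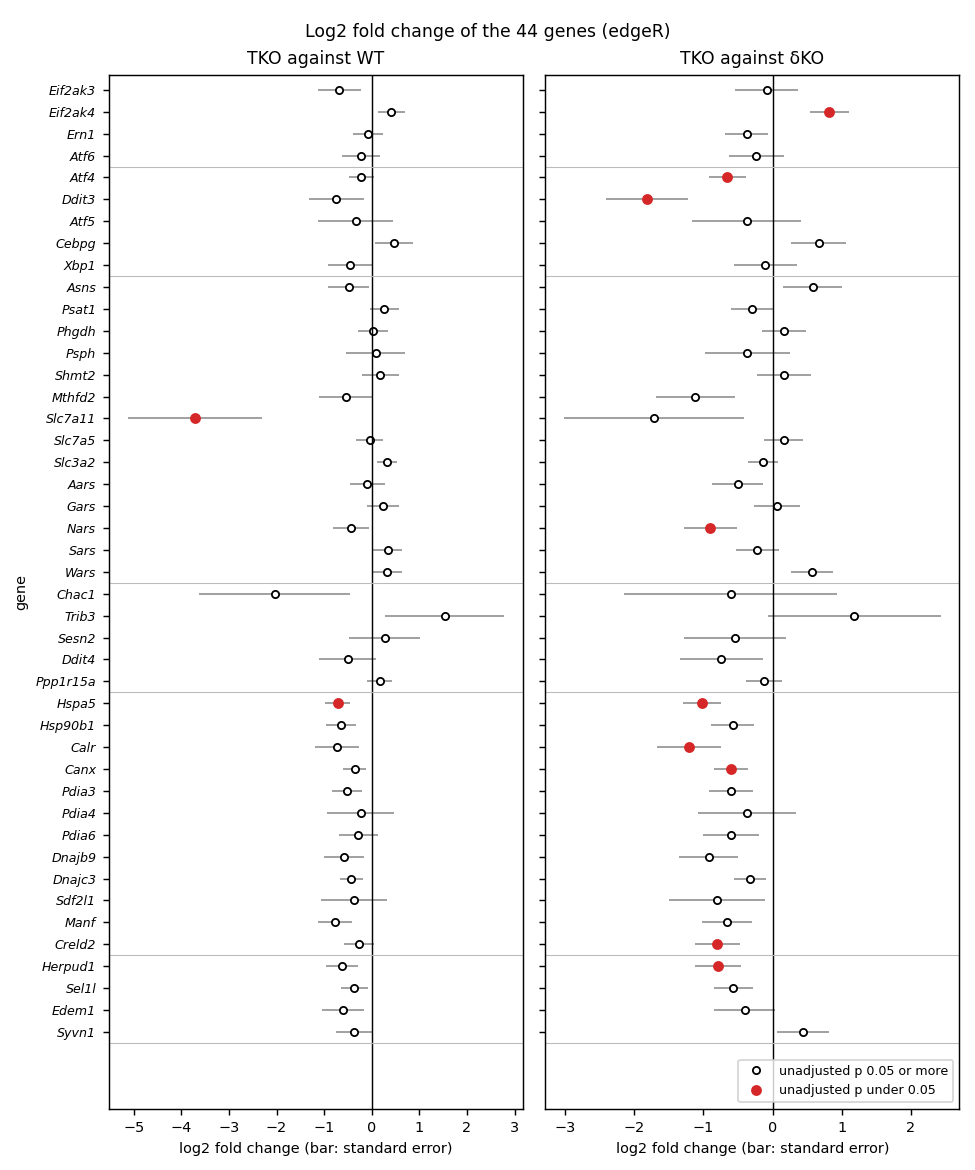
Log2 fold change (horizontal axis) of each of the 44 genes in TKO against WT (left) and TKO against δKO (right), with bars of 1 standard error; horizontal lines separate the role groups, in the order sensors, transcription factors, amino acid, feedback, ER folding and ER degradation genes. All 12 ER folding genes lie left of 0 in both panels, and filled points mark the 2 and 9 genes with an unadjusted p under 0.05, none of which passed adjustment.

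In 9 members the TKO and WT libraries did not overlap, 3 with TKO above and 6 with TKO below, beside 6.88% and 7.47% of all genes. Against δKO, 3 members lay wholly higher and 7 wholly lower in TKO (15.9% of members, beside 4.74% of all genes for lower and 6.98% for higher). Between δKO and WT, 2 lay wholly higher and 2 wholly lower, beside 4.13% and 7.39% of all genes. Over the whole set, 31 members were below and 13 above 0 in TKO against WT, beside 48.8% and 51.2% of all genes. In TKO against δKO 34 were below and 10 above 0, beside 52.8% and 47.2%, and in δKO against WT 15 were below and 29 above, beside 47.2% and 52.8%. Without the unnumbered δKO library these counts were 27 below and 17 above in the first and turned to 26 below and 18 above in the second. They were 25 and 19, and 26 and 18, with the replicate block (the replicate number as a term of the fit). In that block the unnumbered δKO library is alone and gets no weight, so the fit in part repeats leaving it out. With genes detected as a covariate the counts were 30 and 14, and 27 and 17. These comparisons share their libraries in pairs, so each is given by its own values.

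Levels per kilobase of exons put the ER chaperones at the top in WT. Calr, a calcium-binding lectin chaperone, stood at 277 ± 97.2 CPM per kilobase (SD, n = 3) and Hspa5, the ER HSP70 chaperone BiP, at 222 ± 26.1. Sdf2l1, Hsp90b1, Pdia3 and Ppp1r15a followed between 118 and 124 CPM per kilobase, and these neighbours did not differ beyond their SDs. Atf4 was the eighth at 90.2 ± 5.33 CPM per kilobase. The sensors Eif2ak4 and Eif2ak3 stood at 7.08 and 3.01 CPM per kilobase. At the bottom of the order were Chac1, Slc7a11 and Trib3, at 2.45, 0.822 and 0.408 CPM per kilobase in WT, and the highest library of these 3 exceeded the lowest by 94.4 to 122 times on the CPM scale. The other 41 members had a highest library 1.66 to 19.0 times the lowest.

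**Figure D2:**
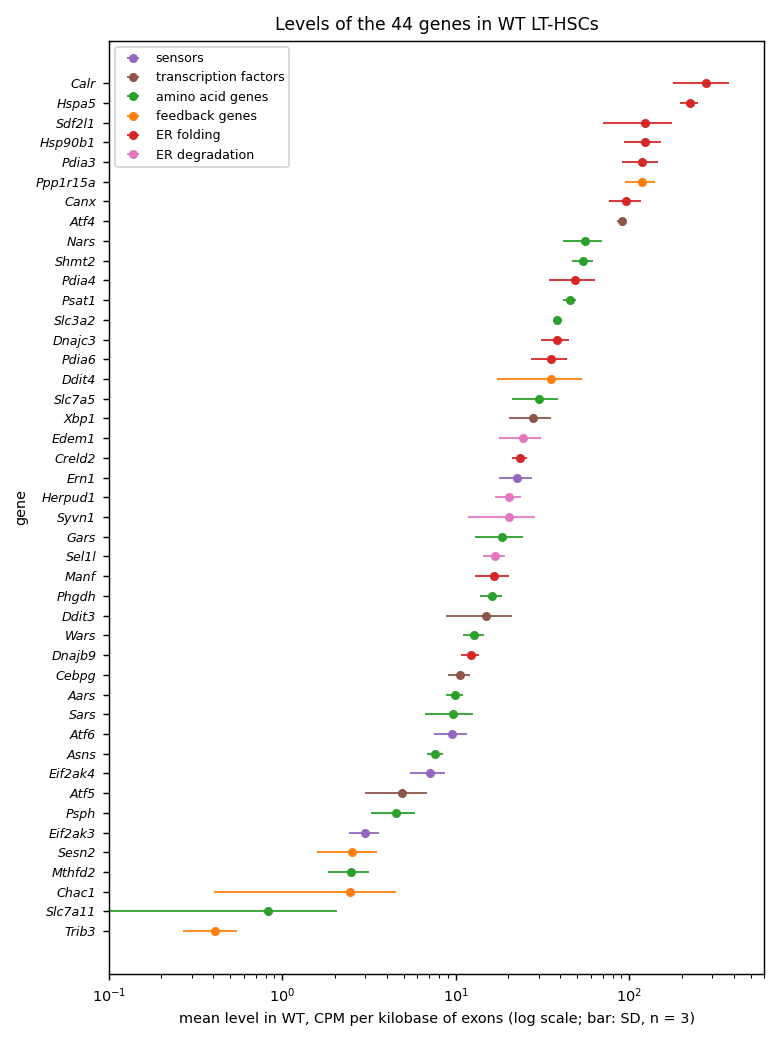
Mean level of each gene in the 3 WT libraries in CPM per kilobase of exons on a log axis, in order of level and coloured by role group; bars are the SD, and that of Slc7a11 runs past the left edge because its SD exceeds its mean. ER folding genes fill the top places, from Calr at 277 CPM per kilobase, and Trib3 is lowest at 0.408.

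Among the sensors, the PERK gene Eif2ak3 lay lower in TKO and δKO than in WT and the GCN2 gene Eif2ak4 lay higher in TKO than in δKO. Eif2ak3, on chr6:70844515-70905245 of mm10, was measured at 16.7, 22.3 and 15.5 CPM in WT replicates 1, 2 and 3, at 11.4, 13.7 and 10.9 CPM in δKO replicates 1 and 2 and the unnumbered library, and at 14.6, 9.27 and 10.2 CPM in the TKO replicates. All 3 TKO libraries were below all 3 WT libraries, with a log2 fold change of -0.68 ± 0.46 (SE) and an unadjusted p of 0.165. All 3 δKO libraries were below WT too, at -0.59 ± 0.46, and TKO against δKO was at -0.09 ± 0.46. Eif2ak4, which senses uncharged tRNA, was at 51.1, 65.7 and 41.6 CPM in WT, 37.9, 36.2 and 45.2 CPM in δKO and 66.0, 78.8 and 65.2 CPM in TKO. TKO stood wholly above δKO and overlapped WT. The log2 fold change of Eif2ak4 was 0.82 ± 0.28 (SE) against δKO, with an unadjusted p of 0.0138 and an adjusted p of 0.465 by edgeR's quasi-likelihood test, and it was 0.41 ± 0.28 against WT. The value between δKO and WT was -0.41 ± 0.28. Eif2ak4 was the only member with an unadjusted p under 0.05 that lay higher in TKO, and each library left out in turn kept it between 0.72 and 0.92 against δKO. The IRE1 gene Ern1 and Atf6 had genotypes that overlapped in every comparison, with log2 fold changes in TKO of -0.08 and -0.22 against WT and -0.37 and -0.24 against δKO.

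Of the transcription factors, Atf4 and Ddit3 lay lower in TKO than in δKO, and 1 or 2 δKO libraries of each stood well above the rest. Atf4 was measured at 214.5, 199 and 224 CPM in WT, 323, 178 and 362 CPM in δKO and 168, 188 and 193 CPM in TKO. TKO stood just below WT without overlap, with means of 183 ± 13.0 and 213 ± 12.6 CPM (SD, n = 3), and δKO replicate 2 lay within the TKO range. The log2 fold change of Atf4 was -0.22 ± 0.26 (SE, unadjusted p = 0.428) against WT and -0.65 ± 0.26 (unadjusted p = 0.0304) against δKO. Between δKO and WT it was 0.44 ± 0.26, and ran from 0.24 without the unnumbered δKO library to 0.69 without δKO replicate 2. Without the unnumbered δKO library the difference from δKO was -0.46, with an unadjusted p of 0.121.

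Ddit3 encodes CHOP, a factor that ATF4 induces and that is known to favour cell death under lasting stress. It was measured at 34.5, 13.9 and 28.1 CPM in WT, 105, 18.2 and 37.7 CPM in δKO and 11.9, 17.4 and 16.4 CPM in TKO. All 3 TKO libraries lay below all 3 δKO libraries, and δKO replicate 1 stood far above the other two. The log2 fold change of Ddit3 was -1.82 ± 0.59 (SE, unadjusted p = 0.0101) against δKO, and without δKO replicate 1 it was -0.88 (unadjusted p = 0.0864). Against WT it was -0.74 ± 0.58, and -0.47 without WT replicate 1. In δKO against WT it was 1.07 ± 0.58 (unadjusted p = 0.09), 0.13 (unadjusted p = 0.787) without δKO replicate 1 and 1.49 (unadjusted p = 0.0159) without δKO replicate 2. The annotation places exons of other genes over 10.9% of the exon bases of Ddit3, including the antisense neighbour Mars, and the amplification kit does not mark strand.

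Atf5, a factor related to ATF4, was low and scattered, at 11.6, 12.4 and 5.42 CPM in WT, 5.82, 7.96 and 16.4 CPM in δKO and 7.48, 1.54 and 14.2 CPM in TKO. Its genotypes overlapped throughout, and its log2 fold changes were -0.34 ± 0.79, -0.38 ± 0.79 and 0.04 ± 0.79 (SE) in TKO to WT, TKO to δKO and δKO to WT. Single libraries turned these signs, to 0.15 without TKO replicate 2 in the first. Without the unnumbered δKO library the other values were 0.17 and -0.51. Xbp1 was measured at 115, 89.3 and 66.0 CPM in WT, 27.2, 61.9 and 122 CPM in δKO and 79.8, 67.6 and 49.0 CPM in TKO. The δKO libraries of Xbp1 spanned both other genotypes, and its log2 fold changes were -0.46 ± 0.46, -0.11 ± 0.46 and -0.35 ± 0.46 in the same order. The sign of Xbp1 in TKO against δKO turned to 0.55 without the unnumbered δKO library. Cebpg, a partner of ATF4, had log2 fold changes in TKO of 0.46 ± 0.40 against WT and 0.67 ± 0.40 against δKO.

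**Figure D3:**
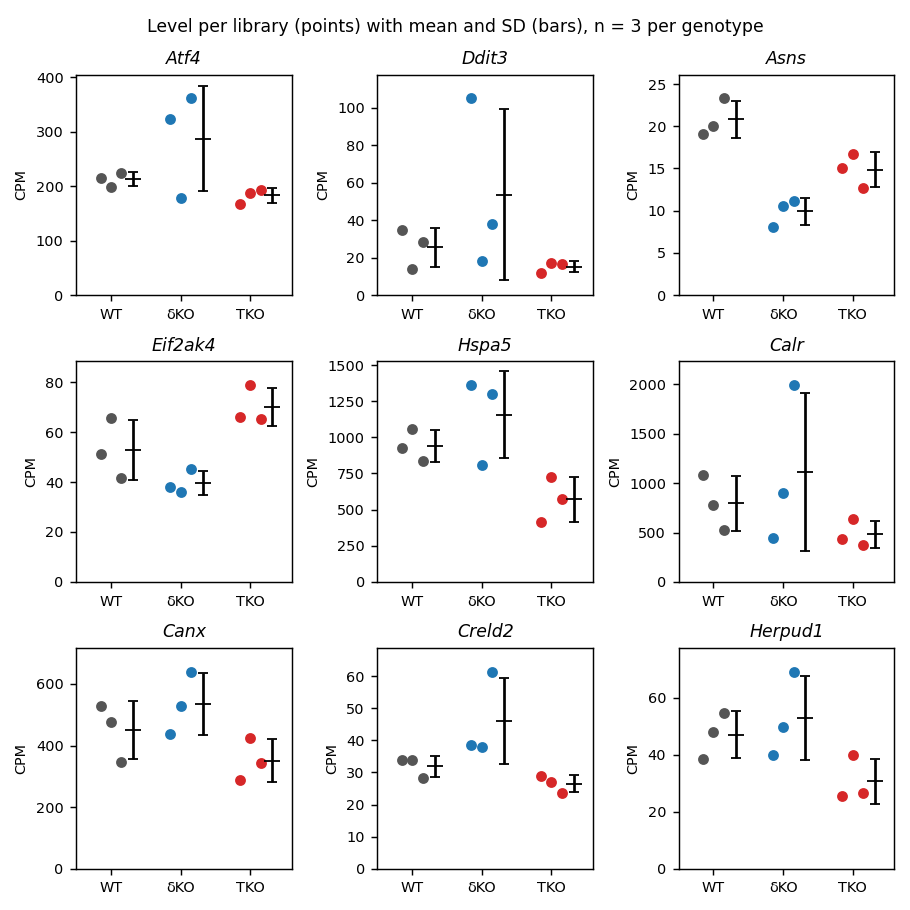
CPM (vertical axis, from 0) of 9 genes in each library, with the mean and SD of each genotype beside the points (n = 3 per genotype). The TKO libraries of Hspa5, at 415 to 722 CPM, lie below all WT and δKO libraries, and Asns is ordered WT, TKO, δKO without overlap.

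The amino acid genes lay to both sides of 0 in TKO, with 8 above and 6 below 0 against WT and 6 above and 8 below 0 against δKO. For δKO against WT, 9 lay above and 5 below 0, with a median of 0.29, which was 0.040 without δKO replicate 1 and turned to -0.072 without the unnumbered δKO library and to -0.12 with the replicate block (8 of 14 below 0 in both). The mean of the 14 genes, each centred on its own mean log2 CPM, was -0.0057, 0.065 and 0.12 in WT, -0.15, 0.13 and 0.22 in δKO and -0.11, -0.076 and -0.19 in TKO, so that TKO lay wholly below WT in the mean while the median fold change was above 0. Without Slc7a11 the mean was 0.022, 0.074 and -0.19 in WT and 0.069, 0.098 and -0.22 in TKO, and they overlapped. Asns, which makes asparagine and is a much used readout of ATF4, was the member that separated the genotypes fully. It was measured at 19.1, 20.0 and 23.3 CPM in WT, 8.06, 10.5 and 11.1 CPM in δKO and 15.1, 16.8 and 12.7 CPM in TKO. Every δKO library was below every TKO library, and every TKO library below every WT library. The log2 fold change of Asns was -1.07 ± 0.43 (SE) in δKO against WT, with an unadjusted p of 0.0293 and an adjusted p of 0.699 by edgeR's quasi-likelihood test. It was -0.49 ± 0.43 in TKO against WT and 0.58 ± 0.43 in TKO against δKO, with unadjusted p-values of 0.276 and 0.199. Atf4 itself stood in another order, with its mean highest in δKO.

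Slc7a11, the cystine transporter, had the largest fold change of any member in TKO against WT, and 1 library made it. It was measured at 1.38, 1.73 and 31.2 CPM in WT, 0.838, 2.71 and 5.01 CPM in δKO and 0.287, 0.32 and 1.99 CPM in TKO. WT replicate 3, with 1308 reads, stood apart from the 82 and 91 reads of the other WT libraries. The log2 fold change was -3.72 ± 1.41 (SE, unadjusted p = 0.0222) with that library and -0.84 (unadjusted p = 0.55) without it, and the genotypes overlapped.

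Nars, the asparaginyl-tRNA synthetase gene, was at 309, 232 and 188 CPM in WT, 162, 283 and 554 CPM in δKO and 191, 189.7 and 154 CPM in TKO. The genotypes overlapped, and the unnumbered δKO library was the highest of all. For TKO against δKO it was at -0.90 ± 0.38 (log2 fold change and SE, unadjusted p = 0.037), and at -0.32 without the unnumbered δKO library (unadjusted p = 0.318). The other 4 tRNA synthetase members, Aars, Gars, Sars and Wars, ran from -0.09 to 0.34 in TKO against WT, and Wars lay wholly above both other genotypes in TKO with log2 fold changes of 0.33 and 0.57. Slc3a2, the heavy chain that the transporters SLC7A5 and SLC7A11 bind, was between 132 and 219 CPM in the 9 libraries. Its highest library was 1.66 times its lowest, the smallest such ratio among the members, with Phgdh close at 1.67. Slc3a2 lay wholly above WT in TKO (0.32 ± 0.22) and in δKO (0.45 ± 0.22). The serine pathway genes Psat1, Phgdh, Psph and Shmt2 had log2 fold changes in TKO between 0.03 and 0.26 against WT and between -0.36 and 0.17 against δKO. The mitochondrial folate enzyme gene Mthfd2 was at -0.55 ± 0.57 against WT and, wholly below, -1.12 ± 0.57 against δKO.

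ATF4 is known to bind DNA with a C/EBP partner at a composite element, searched here as TGATGNAA on both strands of the window from 250 bases before to 50 bases after each gene start (RefSeq, GRCm38.p6). A window was found for 39 of the 44 members. The letters were in the windows of 7 of these 39 and of 4.51% of 27025 genes. They were in 4 of 11 amino acid genes (Aars, Asns, Gars and Slc7a11), in the feedback genes Chac1 and Trib3, in Herpud1 and in 0 of 11 ER folding genes. Of the 7 members with a match, 5 lay below 0 in TKO against WT, from Slc7a11 at -3.72 to Aars at -0.09, and Gars and Trib3 lay above at 0.24 and 1.53. Against δKO 4 of the 7 lay below 0. The 317 tested genes with the letters that are not members had medians of 0.04 against WT and -0.06 against δKO. The matches of Asns, a member the results turn on, and of Gars, Chac1 and Slc7a11 are shown 5′ to 3′ on the strand of the gene, with the 8 matching letters in capitals. They stand at chr6:7693225-7693232, chr6:55037971-55037978, chr2:119351049-119351056 and, for the match of Slc7a11 nearer its start, chr3:50443653-50443660.
Asns: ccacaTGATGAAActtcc
Gars: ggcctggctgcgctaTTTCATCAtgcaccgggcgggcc
Chac1: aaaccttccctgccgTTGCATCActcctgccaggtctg
Slc7a11: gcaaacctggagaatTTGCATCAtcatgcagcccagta
In the matches shown, Asns carries the letters as searched and the other 3 carry them on the opposite strand. Slc7a11 has a second match, not shown, at chr3:50443672-50443679, with the letters as searched. A match describes the letters only and does not show that ATF4 bound there.

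The feedback and growth-arrest genes held both scattered members, Chac1 and Trib3, and a steady one, Ppp1r15a. Chac1, a glutathione-degrading enzyme gene and a sensitive ATF4 and CHOP target, was at 2.99, 1.29 and 7.74 CPM in WT, 0.12, 0.089 and 4.24 CPM in δKO and 1.45, 1.39 and 0.0636 CPM in TKO, and its genotypes overlapped. In TKO against WT it was at -2.04 ± 1.59 (log2 fold change and SE), and at -1.14 without WT replicate 3. For Chac1, 3 libraries held 3 to 5 reads. Ddit4, an inhibitor of mTORC1, was at 56.9, 33.1 and 96.3 CPM in WT, 147 and 27.2 CPM in δKO replicates 1 and 2, 44.9 CPM in the unnumbered δKO library, and 51.3, 23.7 and 55.9 CPM in TKO. TKO overlapped both controls, and the log2 fold change of -0.74 ± 0.60 against δKO turned to 0.27 without δKO replicate 1. Ppp1r15a, which encodes GADD34 and brings phosphatase to eIF2α, was at 275, 348 and 414 CPM in WT, 426, 352 and 491 CPM in δKO and 273, 471 and 419 CPM in TKO. Its genotypes overlapped, with 0.29 ± 0.26 in δKO against WT and 0.17 ± 0.26 in TKO against WT. Trib3 lay wholly above WT in TKO (1.53 ± 1.26) at means of 2.5 and 0.867 CPM, and Sesn2 was at 0.27 ± 0.74.

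Hspa5 had the lowest unadjusted p of the 44 genes against δKO and against WT, and its TKO libraries were below every control library. Hspa5 encodes BiP, on chr2:34771970-34777547, and its RNA is a standard readout of the unfolded protein response. It was measured at 924, 1058 and 839 CPM in WT, 1362, 809.6 and 1302 CPM in δKO and 415, 722 and 575 CPM in TKO. The means were 940.1 ± 110.3 CPM in WT, 1158 ± 303 CPM in δKO and 571 ± 154 CPM in TKO (SD, n = 3). Hspa5 was 1.65 times lower in TKO than in WT, a log2 fold change of -0.72 ± 0.27 (SE), with an unadjusted p of 0.0203 and an adjusted p of 1.00 by edgeR's quasi-likelihood test. Against δKO it was 2.03 times lower, a log2 fold change of -1.02 ± 0.27, with an unadjusted p of 0.00273 and an adjusted p of 0.465 by the same quasi-likelihood test. Between δKO and WT it was 0.30 ± 0.27. Each library left out in turn kept Hspa5 between -0.93 and -0.54 against WT and between -1.23 and -0.84 against δKO, and without the 3 libraries highest in neutrophil markers it was -0.89 and -0.93. The unadjusted p against WT was 0.0875 without TKO replicate 1 and 0.0672 without WT replicate 2, and against δKO it was at most 0.0148 without any 1 library.

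Calr, Canx and Creld2 were the other ER folding genes with an unadjusted p under 0.05 against δKO. Calr was at 1085, 780.3 and 526 CPM in WT, 442, 898 and 1993 CPM in δKO and 436, 636 and 371 CPM in TKO. The unnumbered δKO library was far the highest, TKO overlapped both controls, and the log2 fold change was -1.21 ± 0.47 (SE, unadjusted p = 0.0246) with that library and -0.48 (unadjusted p = 0.228) without it. Against WT it was -0.73 ± 0.46. Canx, a membrane-bound lectin chaperone that works with Calr on glycoproteins, was at 529.5, 477 and 346 CPM in WT, 438, 527 and 639 CPM in δKO and 287, 425 and 342 CPM in TKO. TKO lay wholly below δKO (-0.61 ± 0.25, unadjusted p = 0.0321) and overlapped WT (-0.36 ± 0.25). Creld2, a disulfide isomerase-like gene, was at 33.7, 33.8 and 28.1 CPM in WT, 38.6, 38.1 and 61.3 CPM in δKO and 28.8, 27.0 and 23.5 CPM in TKO. TKO was wholly below δKO (-0.80 ± 0.32, unadjusted p = 0.0309), and δKO was wholly above WT (0.53 ± 0.32). Without the unnumbered δKO library Canx was at -0.46 (unadjusted p = 0.108) and Creld2 at -0.54 (unadjusted p = 0.134) against δKO.

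The other 8 folding genes lay between -0.77 and -0.24 in TKO against WT and between -0.93 and -0.32 against δKO. Manf, a secreted stress-induced protein, and Dnajb9, a BiP cochaperone that restrains IRE1, lay wholly below WT in TKO, with -0.77 ± 0.36 and -0.59 ± 0.42. Dnajb9 also lay wholly below δKO, at -0.93 ± 0.43 with an unadjusted p of 0.0514. Hsp90b1, the ER HSP90, was at -0.65 ± 0.31 against WT with an unadjusted p of 0.0596, and 15.7% of its exon bases are shared with other annotated genes. The least steady were Pdia4, from 12.1 to 230 CPM, and Sdf2l1, from 41.1 to 359 CPM, with standard errors of 0.71 and 0.69 that exceeded their log2 fold changes against WT. The disulfide isomerases Pdia3 and Pdia6 and the PERK inhibitor Dnajc3 were at -0.52, -0.28 and -0.43 against WT, and their genotypes overlapped.

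Folding genes went up and down together within genotypes. The unnumbered δKO library was the highest of all 9 for 8 of the 12 and the highest δKO library for 10. TKO replicate 2 was the highest TKO library for 10 of the 12, and TKO replicate 1 was the lowest of all 9 libraries for 6. WT replicate 3 was the lowest WT library for 11 of the 12. For the 14 amino acid genes no library was the highest of all 9 for more than 5, but within genotypes TKO replicate 3 was the lowest for 10, δKO replicate 1 for 9 and WT replicate 3 for 8. The mean of the 12 folding genes, each centred on its own mean log2 CPM, was 0.38, 0.26 and -0.18 in WT, -0.38, 0.23 and 0.83 in δKO and -0.65, 0.06 and -0.55 in TKO. Taken over all 12 genes the genotypes overlapped, because TKO replicate 2 stood above WT replicate 3 and δKO replicate 1.

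**Figure D4:**
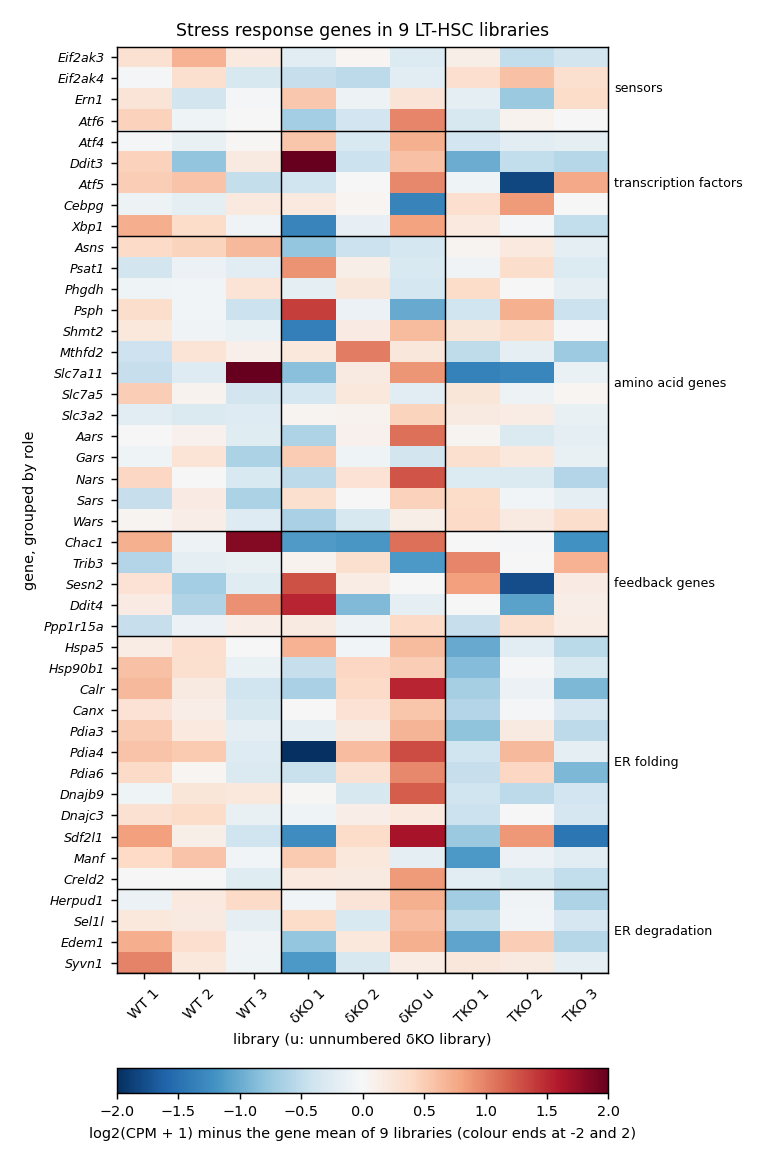
Log2(CPM + 1) of each gene minus its mean over the 9 libraries, in colour (red above, blue below; the scale ends at -2 and 2), with genes grouped by role in rows and libraries in columns. The unnumbered δKO library is the reddest column of the ER folding block, where it is the highest library for 8 of 12 genes, and in the amino acid block it is the highest for 5 of 14.

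The spread of the folding genes went in part with other measures of the same libraries. The summed level of 10 neutrophil and granule genes, all of which passed the filter, was 5555 to 12868 CPM in WT, 277 to 12803 CPM in δKO and 170 to 3413 CPM in TKO, and the lowest library of δKO and of TKO in these genes was also the lowest of its genotype in the folding mean. WT did not share this, since its lowest folding mean, in replicate 3, came with 11224 CPM of neutrophil genes and that of replicate 2, the lowest in these genes, was 0.26. Of these markers, Elane, Mpo, Prtn3 and Ctsg are also expressed by early myeloid progenitors. None of the 10 was at 0 in any library. Of 10 macrophage markers 6 passed the filter, with a sum over the list of 95.1 to 177 CPM in WT, 66.5 to 274 CPM in δKO and 50.7 to 141 CPM in TKO, and Marco was at 0 in all 9 libraries while C1qa, C1qb and C1qc were each at 0 in 7. Plasma cells are rich in ER chaperones, and of 10 plasma and B cell markers 7 passed, with sums of 31.2 to 274 CPM in WT, 26.0 to 37.7 CPM in δKO and 12.7 to 34.1 CPM in TKO, and with Mzb1 and Tnfrsf17 at 0 in 7 libraries each. Of 10 erythroid markers 8 passed, and their sums were 8.65 to 31.6 CPM in WT, 14.5 to 76.9 CPM in δKO and 23.4 to 48.7 CPM in TKO. The summed level of 16 cell cycle genes was 3355 to 4253 CPM in WT, 3290 to 4889 CPM in δKO and 2381 to 2792 CPM in TKO. In TKO 13 of the 16 lay wholly below WT and 7 wholly below δKO, beside 7.47% and 4.74% of all genes. Their mean centred log2 CPM was 0.43, 0.22 and 0.060 in WT and -0.24, 0.37 and 0.66 in δKO. In TKO it was -0.68, -0.26 and -0.56, and in each genotype it ordered the libraries as the folding mean did. By the sum, TKO replicate 3 stood just below replicate 1. Mitochondrial rRNA took 14.4% to 16.8% of the counts in WT, 9.63% to 17.1% in δKO and 6.88% to 15.7% in TKO. TKO replicate 2 was the highest TKO library in this share, in neutrophil genes and in the folding mean. In δKO the share rose in the order of the folding mean. WT replicate 3 had the highest WT share, 16.8%, and the lowest WT folding mean. TKO replicate 3, at 6.88%, had a lower share than replicate 1, at 8.64%, but a higher folding mean. The 10 stem cell markers had a mean centred log2 CPM of -0.59 to -0.11 in WT, -0.47 to 0.55 in δKO and 0.32 to 0.43 in TKO, wholly above WT. The part of these cells and measures in the values of the ER genes was not tested.

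**Figure D5:**
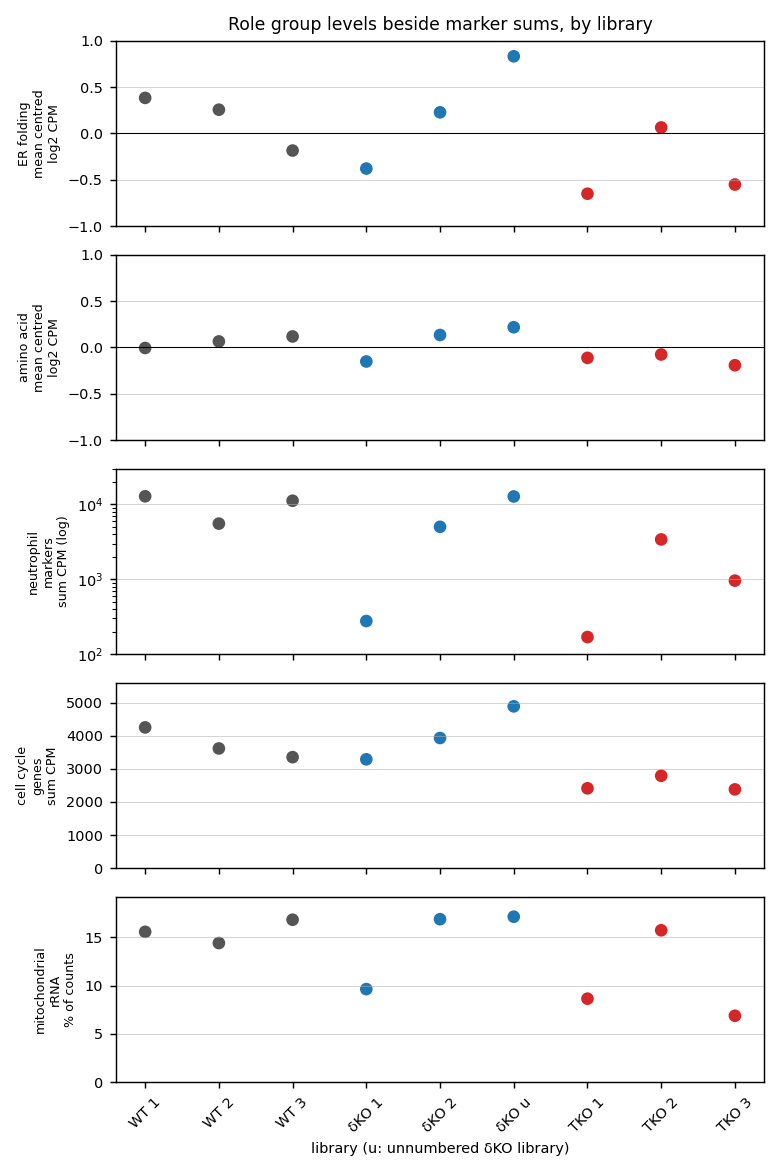
For each of the 9 libraries (grey WT, blue δKO, red TKO), from top to bottom: the mean centred log2 CPM of the 12 ER folding genes and of the 14 amino acid genes, the summed CPM of 10 neutrophil genes on a log axis, the summed CPM of 16 cell cycle genes, and the percentage of counts in mitochondrial rRNA. The folding mean runs from -0.65 in TKO replicate 1 to 0.83 in the unnumbered δKO library, the lowest and second highest of the 9 in neutrophil genes, and the amino acid means stay within a narrower range.

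The 4 degradation genes followed the folding genes in TKO against WT. Herpud1, an ER membrane protein of the degradation complex that ATF6, XBP1 and ATF4 can all induce, was at 38.5, 48.1 and 54.7 CPM in WT, 40.0, 49.9 and 69.1 CPM in δKO and 25.5, 39.8 and 26.7 CPM in TKO. TKO lay wholly below δKO by a narrow margin and overlapped WT, with log2 fold changes of -0.79 ± 0.33 (SE, unadjusted p = 0.036) and -0.62 ± 0.33 (unadjusted p = 0.0879). Without the unnumbered δKO library the first was -0.55, with an unadjusted p of 0.134. Syvn1, the ubiquitin ligase HRD1, was at 143, 82.9 and 66.9 CPM in WT, 31.6, 56.8 and 79.1 CPM in δKO and 83.5, 81.2 and 62.3 CPM in TKO. It was the one ER gene above 0 in TKO against δKO, at 0.44 ± 0.38, and was at -0.81 ± 0.38 in δKO against WT with genotypes that overlapped. That value was -1.15 without the unnumbered δKO library, -0.52 without δKO replicate 1 and -0.42 without WT replicate 1. Sel1l, the partner of HRD1, and Edem1, a lectin that picks misfolded glycoproteins, were at -0.36 ± 0.28 and -0.60 ± 0.44 against WT, and both overlapped.

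The ER stress response element, which ATF6 and XBP1 bind with NF-Y, was searched as CCAAT and CCACG with any 9 bases between them, on both strands of the same promoter windows. It was in 8 of 39 members and in 0.137% of 27025 genes. Of the folding genes, 7 of 11 held it (Calr, Canx, Creld2, Dnajc3, Hsp90b1, Hspa5 and Pdia6), of the degradation genes Syvn1 did, and of the amino acid genes 0 of 11. A second form, ATTGG and CCACG with any 1 base between them, was in the window of Herpud1 alone among members and in 0.0444% of all genes. No match overlapped a match of another motif. The elements of the ER genes with an unadjusted p under 0.05 against δKO are shown 5′ to 3′ on the strand of the gene with the whole match in capitals. In the order Hspa5, Calr, Canx, Creld2 and Herpud1, the matches are at chr2:34772025-34772043, chr8:84847075-84847093, chr11:50325800-50325818, chr15:88819520-88819538 and chr8:94386377-94386387 of GRCm38.p6.
Hspa5: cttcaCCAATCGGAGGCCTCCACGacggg
Calr: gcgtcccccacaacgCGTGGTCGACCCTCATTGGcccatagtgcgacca
Canx: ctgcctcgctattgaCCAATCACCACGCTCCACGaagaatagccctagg
Creld2: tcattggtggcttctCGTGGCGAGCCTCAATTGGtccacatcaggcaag
Herpud1: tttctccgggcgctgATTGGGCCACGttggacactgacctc
Calr and Creld2 hold the element on the opposite strand to the gene. The 12 tested genes that held it and were not members had medians of -0.02 in TKO against WT and 0.17 against δKO, with 6 of 12 and 5 of 12 below 0. The 7 tested non-members with the second form had medians of -0.07 and -0.24, with 4 of 7 and 7 of 7 below 0.

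Genes of the same pathways outside the 44 were read from further lists, also chosen with earlier results of these data known. Of 43 other integrated stress response genes, 41 were tested and 0 were called. In TKO against WT, 23 lay above and 18 below 0 (median 0.01), beside 51.2% and 48.8% of all genes. The 1 gene with an unadjusted p under 0.05, beside 1.68% of all genes higher and 2.5% lower, was the tyrosyl-tRNA synthetase gene Yars. It was at 0.64 ± 0.29 (SE). In TKO against δKO, 14 lay above and 27 below 0 (median -0.15), beside 47.2% and 52.8% of all genes. Only the threonyl-tRNA synthetase gene Tars had an unadjusted p under 0.05, beside 4.6% of all genes higher and 5.56% lower. Tars was at -1.06 ± 0.38 (unadjusted p = 0.0171 by edgeR's quasi-likelihood test), wholly below δKO. For δKO against WT 32 lay above and 9 below 0 (median 0.25), beside 52.8% and 47.2% of all genes. The 1 with an unadjusted p under 0.05, beside 3.65% of all genes higher and 3.36% lower, was Cbs, an enzyme of cysteine synthesis. Cbs was at 6.71 ± 2.28 with a mean of 23.9 ± 41.1 CPM in δKO (SD, n = 3), more spread than mean. Of 40 other genes of ER folding, import and degradation, all 40 were tested, 0 were called, and 29 lay below 0 in TKO against WT (median -0.25) and 29 in TKO against δKO (median -0.36), beside 48.8% and 52.8% of all genes. At an unadjusted p under 0.05, 0 were lower against WT and 6 against δKO, beside 2.5% and 5.56% of all genes. The glycoprotein folding sensor Uggt1 was at -0.77 ± 0.26 and wholly below δKO, the prolyl isomerase gene Fkbp2 at -1.14 ± 0.38, and the oxidoreductase gene Ero1lb at -1.35 ± 0.48 and wholly below δKO. In δKO against WT the median was 0.09, and Ufd1l, which helps draw proteins out of the ER, was at 0.98 ± 0.33.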

How the data were processed

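Per the labels and the study's methods, cDNA was amplified with Ovation RNA-Seq System V2 and sequenced on an Illumina HiSeq2000. The authors trimmed reads with Trim Galore 0.3.7, checked them with FastQC 0.11.4, and aligned to mm10 and counted per gene with STAR 2.5.1b. The submitters' processing notes also name bcl2fastq and DESeq2. The strand setting of the counting was not given in the sources used here, and the kit does not mark strand. The deposited raw file holds whole-number counts, the main unit here. The deposited normalized signal was used in 1 alternative only, and 8 of its 9 columns, those with a raw column of the same label, were each proportional to that column. All value columns belonged to a genotype (0 columns of no sample), and the unnumbered δKO column was assigned by genotype only. The deposited normalized column named for δKO replicate 3 is proportional to it, which was not used to number it.

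Names and exon lengths came from GENCODE M21, in which 47224 of 47643 identifiers were found without version and 39106 with version. Genes passing filterByExpr (count minimum 10, total minimum 15) numbered 18205. Counts were scaled by TMM and tested with edgeR 4.0.16 (R 4.3.3) glmQLFit and glmQLFTest over all 9 libraries, with 1 mean per genotype and 6 residual degrees of freedom. Adjustment was by Benjamini-Hochberg over all 18205 genes, and a call needed an adjusted p under 0.05 and more than 2-fold. The common biological coefficient of variation was 0.805. The standard error printed with a log2 fold change is its absolute value divided by the square root of the quasi-likelihood F statistic. CPM were computed from the counts with TMM-scaled library sizes. Alternatives used DESeq2 1.42.0 and limma 3.58.1, with a pseudocount of 1 on the log2 scale for the deposited normalized values.

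The 44 members and all lists were chosen with earlier results of these data known. Values in every library are given for Atf4, Ddit3, Atf5, Xbp1, Asns and Hspa5, for the member of each role group with the lowest unadjusted p in a comparison, and for members with an unadjusted p under 0.05. At most 3 other pathway genes per list and comparison are named. Promoter windows were from RefSeq, and Nars, Wars, Slc7a5, Atf6 and Manf had none. Figures were drawn with matplotlib 3.10.9.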

Additional observations from a re-analysis of the deposited data

How the results depend on the processing

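With 22 alternatives, 0 members were called in any comparison under any of them, also when the 2-fold change was not required. Of 725 values for 33 gene results under these alternatives, 701 kept their sign, and the 24 that turned belonged to 10 results. Leaving out 1 library moved 20 of the 33 by over 1.5 times or turned them. All 12 ER folding genes lay below 0 in TKO against WT under every alternative except leaving out TKO replicate 3 or WT replicate 1 (11 of 12 each). Against δKO the exceptions were limma on the deposited normalized values (11 of 12), and the replicate block, leaving out the unnumbered δKO library and leaving out the 3 libraries highest in neutrophil markers (10 of 12 each). The replicate block also gives the unnumbered δKO library no weight, so these exceptions are not separate. Calls numbered 1, 0 and 1 genes over the whole table in TKO to WT, TKO to δKO and δKO to WT. At 31300343 to 60386097 counts per library, the lowest libraries of Chac1, Slc7a11 and Trib3 held 3, 11 and 1 reads, where the counting error is wide. The causes of the differences between settings were not tested.

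Fitting only the genotypes compared called 9 genes in TKO against WT and 0 in δKO against WT. DESeq2 on all libraries called 63, 332 and 75 genes in the 3 comparisons, and on the pair alone 418, 83 and 51. Voom called 12 in TKO against WT. Without the 3 libraries highest in neutrophil markers 0 genes were called in TKO against WT and 0 in δKO against WT. Members with an unadjusted p under 0.05 numbered 2, 9 and 1. In TKO against WT they were 4 with the replicate block (309 and 566) and 5 with only the genotypes compared (813 and 782 of 17548). They were 6 with DESeq2 on the pair (1018 and 957 of 17548) and 10 with voom (951 and 1124). All of these members lay lower. In TKO against δKO they were 5 with upper-quartile factors, 2 higher and 3 lower, beside 1 and 8 (984 and 666). They were 2 with genes detected as a covariate (598 and 362) and 4 with only the genotypes compared (378 and 530 of 16369). In δKO against WT they were 2 with upper-quartile factors (371 and 717) and 2 with at least 10 counts in every library (435 and 209 of 11605). They were 3 with the replicate block (494 and 511), 0 with the covariate (112 and 174) and 0 with only the genotypes compared (398 and 344 of 16908). Upper-quartile factors moved the median of all genes by 0.14 in TKO against δKO and by -0.15 in δKO against WT.

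Role group medians moved by more than the spread between libraries as follows. With the replicate block, TKO against δKO gave 0.21 for sensors, 0.046 for amino acid and -0.077 for degradation genes, and δKO against WT gave -0.60 for sensors, -0.12 for amino acid, -0.30 for folding and -0.47 for degradation genes. With genes detected as a covariate, TKO against δKO gave 0.0041 for amino acid and -0.0022 for feedback genes, and δKO against WT gave -0.39 for sensors, 0.044 for amino acid and -0.39 for degradation genes. Upper-quartile factors gave -0.033 and 0.11 for amino acid genes in these comparisons. Limma on the normalized values gave -0.61 for factors in TKO against δKO and 0.16 for amino acid genes in δKO against WT. Voom gave 0.026 for feedback genes in TKO against δKO, and 0.083 for amino acid and -0.52 for feedback genes in δKO against WT. Without the 3 libraries, sensors were at 0.049 in TKO against WT. TKO against δKO then gave 0.15 for sensors, 0.17 for factors, -0.055 for amino acid and -0.0074 for feedback genes, and δKO against WT gave -0.64 for sensors, 0.31 for factors, -0.0082 for amino acid and -0.21 for folding genes.

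Leaving out 1 library gave 1 to 4 called genes in TKO against WT. Members with an unadjusted p under 0.05 then numbered 0 to 7 in TKO against WT (7 without TKO replicate 2, 0 without TKO replicate 1), 3 to 15 in TKO against δKO (15 without δKO replicate 1, 3 without TKO replicate 1 or 3) and 0 to 6 in δKO against WT (6 without the unnumbered library). Of all genes, 327 lay higher and 563 lower of 19488 beside the 7, and 235 and 251 of 19161 beside the 0. They were 1076 and 1313 of 19583 beside the 15, and 670 and 598 of 19161 or 692 and 731 of 19160 beside the 3. The 6, with 1 higher and 5 lower, stood beside 1116 and 620 of 19577. In TKO against WT the medians ran from -0.33 to 0.023 for sensors, -0.63 to -0.21 for factors, -0.040 to 0.22 for amino acid, -0.39 to 0.22 for feedback, -0.80 (without TKO replicate 2) to -0.34 for folding and -0.68 to -0.34 for degradation genes. In TKO against δKO they ran from -0.22 to 0.15 for sensors, -0.69 to 0.17 for factors, -0.27 to -0.054 for amino acid, -0.88 to 0.014 for feedback, -0.89 to -0.37 (without the unnumbered library) for folding and -0.84 (without TKO replicate 2) to -0.20 (without the unnumbered library) for degradation genes, which were at -0.29 without TKO replicate 1. In δKO against WT they ran from -0.52 to -0.054 for sensors, -0.072 to 0.41 for amino acid and -0.18 to 0.45 for folding genes.

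Single genes turned sign as follows, with unadjusted p-values of 0.0906 or more. With the covariate, δKO against WT gave -0.017 for Atf4, -0.12 for Ddit3 and -0.16 for Hspa5. Ddit3 in TKO against WT was 0.13 without the 3 libraries. Atf5 ran from -1.12 to 0.15 in TKO against WT and from -1.16 to 0.17 in TKO against δKO as libraries were left out, and was 0.17 against δKO without the 3 libraries. Atf5 in δKO against WT was -0.11 with upper-quartile factors, -0.042 with at least 10 counts in every library, -0.40 with the replicate block and -0.84 without the 3 libraries, and ran from -0.51 to 0.31 as libraries were left out. Xbp1 in TKO against δKO was 0.0087 with upper-quartile factors, 0.77 with the replicate block, 0.044 with the covariate, 0.10 with limma on the normalized values and 0.55 without the 3 libraries. It ran from -0.50 to 0.55 as libraries were left out, and from -1.02 to 0.032 in δKO against WT. Ddit4 in TKO against δKO was 0.30 with voom and ran from -1.14 to 0.27.

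The replicate block fitted libraries with the same number in different genotypes as belonging together. The unnumbered δKO library was alone in its block, so this fit gave it no weight in the comparisons. The labels do not say that same-numbered libraries belong together. Their correlations ran from -0.04 to 0.08, beside -0.09 to 0.12 for the other pairs of libraries of different genotypes. The block was therefore not used as the main fit, and it called 0 members.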
